A study of Homo sapiens with 12 samples.

Results

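Androgen-responsive genes outside the kallikrein family were followed gene by gene in LNCaP cells after depletion of BRG1. The genes were taken from a list of 36 symbols that was drawn up with earlier results of these data known, and 35 of them were found among the 63568 genes of the expression table. TARP was not matched to a row and has no value here. The groups were LNCaP cells given a non-targeting siRNA (si-NT) or an siRNA against SMARCA4, the gene that encodes BRG1, and RNA was sequenced 72 h and 144 h after transfection. There were 2 si-NT libraries at each time point and 2 libraries for each of 2 SMARCA4 siRNAs, giving 4 BRG1-depleted libraries at a time point and 12 libraries in all. The expression table numbers these siRNAs 2 and 3, and they are named by those numbers, whereas the sample labels number them 1 and 2, so which labelled siRNA each is cannot be told. For 1 library of 72 h the labels also give one siRNA in the title and the other as the treatment, and values by siRNA follow the table alone. LNCaP is a prostate cancer line derived from a lymph node metastasis, so every library came from 1 line. Depletion was transient, and the cells of 144 h were split and transfected a second time at 72 h, si-NT cells included. The labels give no androgen treatment that differed between groups. Values are TPM, which corrects the reads of a gene for its length and gives every library the same total, and nothing in the labels states that the 2 libraries of an siRNA came from separate cultures, so p-values measure only the spread between these libraries.

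The androgen receptor is a nuclear hormone receptor that binds DNA as a dimer once it holds androgen. Its binding element is a palindrome of short inverted arms, and in luminal prostate cells it often lies in enhancers that FOXA1, a forkhead pioneer factor, holds open. Its targets in the prostate include secreted proteases, lipid and sugar enzymes, parts of the secretory pathway and feedback regulators of the receptor itself. BRG1 is an ATPase of SWI/SNF, a complex that moves and evicts nucleosomes at promoters and enhancers and can hold BRM in place of BRG1.

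SMARCA4 was at 73.4 to 107 TPM in the si-NT libraries and at 11.4 to 21.7 TPM in the BRG1-depleted libraries. Its log2 fold change was -2.07 ± 0.16 (SE) at 72 h and -2.66 ± 0.16 at 144 h, with limma adjusted p-values of 0.000538 and 1.01e-05. The cells carried luminal prostate RNA, with KRT8 at 303 to 500 TPM and HOXB13 at 118 to 215 TPM, whereas 5 of 6 basal markers stayed under 1 TPM in every library, KRT5 and TP63 among them. Of the 6 stromal markers 4 stayed under 1 TPM, and the summed level of the stromal list was 7.25 to 9.39 TPM in si-NT and 3.40 to 9.72 TPM in depleted libraries. All 5 matched leukocyte and endothelial markers and 5 of 6 neuroendocrine markers also stayed under 1 TPM. The sixth, SYP, a synaptic vesicle protein, was called higher at 144 h (log2 fold change of 0.66). The summed level of the neuroendocrine list at that time was 0.42 to 0.59 TPM in si-NT and 1.19 to 1.53 TPM in depleted libraries. At 72 h the list summed to at most 0.86 TPM in si-NT, so SYP was under 1 TPM in every si-NT library. It entered the test only through depleted libraries, and its call and the rise of the list are a description. The part of these marker levels in the members' changes was not tested. The number of genes at 1 TPM or more per library was 14706 to 15355.

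Promoter sequence was available from RefSeq (GRCh38.p14) for 26 of the 36 genes, in 46 windows of 250 bases before a transcript start and 50 bases after it. The palindromic androgen response element, which joins AGAACA to TGTTCT across 3 bases, was in 0 of these 46 windows and in 0.00285% of all 35116 windows. One arm of it, AGAACA, which reads TGTTCT on the other strand, was in 5 of the 46 windows (10.9%) and in 14.8% of all windows. These windows came from 4 genes, FKBP5, PMEPA1, SGK1 and TSC22D1, and FKBP5 and SGK1 were not called at 144 h. The forkhead core TGTTTAC, read on both strands, was in 0 member windows and in 3.42% of all windows. The arm is a part of the palindrome, so those searches overlap. The stretches shown are the 250 bases upstream of a start, for 4 genes whose RNA rose at 144 h (PMEPA1, TSC22D1, SLC45A3 and HOMER2) and for UAP1, whose RNA fell. Where a gene has several starts and one stretch holds the arm, that stretch is shown. Capitals mark the arm. In PMEPA1 it begins 229 bases before the start and in TSC22D1 94 bases before it, and the other stretches shown hold none. In FKBP5 and SGK1 it was not within the 250 bases upstream. The bases after the TSC22D1 start shown were not found unbroken in an annotated transcript of that gene.
PMEPA1 (chr20:57710578-57710827, minus strand): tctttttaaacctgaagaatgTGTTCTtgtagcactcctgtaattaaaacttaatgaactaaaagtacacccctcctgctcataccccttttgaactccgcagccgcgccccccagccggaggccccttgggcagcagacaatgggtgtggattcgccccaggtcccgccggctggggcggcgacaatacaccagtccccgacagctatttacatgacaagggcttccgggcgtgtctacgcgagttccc
TSC22D1 (chr13:44474342-44474591, minus strand): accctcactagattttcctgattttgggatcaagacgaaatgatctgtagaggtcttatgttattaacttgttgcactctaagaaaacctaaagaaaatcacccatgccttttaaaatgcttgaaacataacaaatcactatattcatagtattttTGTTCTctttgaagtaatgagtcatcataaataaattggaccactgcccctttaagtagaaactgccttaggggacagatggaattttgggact
SLC45A3 (chr1:205680510-205680759, minus strand): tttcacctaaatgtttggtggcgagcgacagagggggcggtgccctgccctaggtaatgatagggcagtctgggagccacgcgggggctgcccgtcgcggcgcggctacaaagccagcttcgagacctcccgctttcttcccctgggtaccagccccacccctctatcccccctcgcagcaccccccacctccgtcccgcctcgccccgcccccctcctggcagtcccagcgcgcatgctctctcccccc
HOMER2 (chr15:82952721-82952970, minus strand): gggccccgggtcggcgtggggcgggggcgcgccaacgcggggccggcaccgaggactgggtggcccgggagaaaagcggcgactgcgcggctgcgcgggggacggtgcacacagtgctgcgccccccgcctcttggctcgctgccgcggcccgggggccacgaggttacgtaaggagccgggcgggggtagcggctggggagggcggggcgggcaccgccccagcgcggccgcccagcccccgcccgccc
UAP1 (chr1:162561472-162561721, plus strand): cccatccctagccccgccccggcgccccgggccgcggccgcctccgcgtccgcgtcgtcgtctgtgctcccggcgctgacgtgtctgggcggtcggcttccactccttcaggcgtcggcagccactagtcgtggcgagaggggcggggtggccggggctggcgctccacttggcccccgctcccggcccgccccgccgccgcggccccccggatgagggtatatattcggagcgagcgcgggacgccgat

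Both PMEPA1 and TSC22D1 have other starts in the table, 4 and 5 windows in all, and no such arm lay upstream of those. The stretches of HOMER2, UAP1 and SLC45A3 were rich in G and C (82.0%, 77.2% and 69.2%, against a median of 58.0% over all windows), whereas that of PMEPA1 was near the median (55.6%) and that of TSC22D1 below it (34.8%).

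By 144 h more of the androgen-responsive genes were called higher than lower, and the share called lower was near that of all genes. OPRK1, PMEPA1, SLC45A3, CHRNA2, HOMER2, ELL2, HERC3, MAF, PLPP1 and TSC22D1 rose, and CENPN, INPP4B and UAP1 fell. TMPRSS2 and FKBP5 did not pass the test. Of the 36 genes, 33 reached 1 TPM in at least 2 libraries and were tested. MAK, a kinase of male germ cells and cilia, was at 0.17 to 0.57 TPM, and ORM1, an acute-phase plasma protein with a near-identical neighbour gene, was at 0 to 0.29 TPM. A gene was called at a limma adjusted p under 0.05 over the 16337 genes tested, with fold changes on the scale of log2(TPM + 1), on which genes of low level change less than their TPM do. At 144 h, 10 of the 33 genes (30.3%) were higher in BRG1-depleted cells, against 13.6% of all genes tested, and 3 (9.09%) were lower, against 10.8%. The median log2 fold change of the 33 genes was 0.32, and that of all genes 0.03. With a log2 fold change beyond 1.5 as a further limit, OPRK1 and PMEPA1 remained, where 0.698% of all genes were called higher. These counts rested on the si-NT libraries of 144 h: without the second of them 3 genes were called higher (OPRK1, HOMER2 and PLPP1) and 1 lower (UAP1), and the share of all genes fell as well, to 4.6% higher and 2.44% lower. Without the first, 8 were higher and 0 lower, against 6.55% and 4.21% of all genes. Without library 2 of siRNA 3 at 144 h, 1 gene was called lower, against 8.81% of all genes. When TPM was scaled to the spike-ins, the median of all genes moved to -0.31. Under that scaling OPRK1 alone was called higher (against 0.851% of all genes) and 0 genes lower (against 3.75%). Relative to the median of all genes the 10 rises were 0.36 to 2.49, against 0.42 to 2.4 on the deposited scale. The scaling multiplies all genes of a library by the same factor, which subtracting the median largely removes. The like ranges follow from that and are no test of the rises.

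At 72 h limma called 0 of the 33 genes in either direction, against 0.557% of all genes lower and 1.13% higher. At an unadjusted p under 0.05, 3 were lower (INPP4B, UAP1 and ADAMTS1), against 4.63% of all genes, and 4 higher (ELL2, OPRK1, SLC45A3 and PLPP1), against 9.68%. Their median log2 fold change was 0.05, close to the 0.06 of all genes. Separation of the libraries gave a second view that needs no model. At 72 h all 4 BRG1-depleted libraries lay below both si-NT libraries for 6 of the 33 genes (18.2%, against 6.93% of all genes) and above both for 8 (24.2%, against 16.3%). At 144 h the counts were 5 below (15.2%, against 22.5%) and 12 above (36.4%, against 26.1%).

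**Figure D1:**
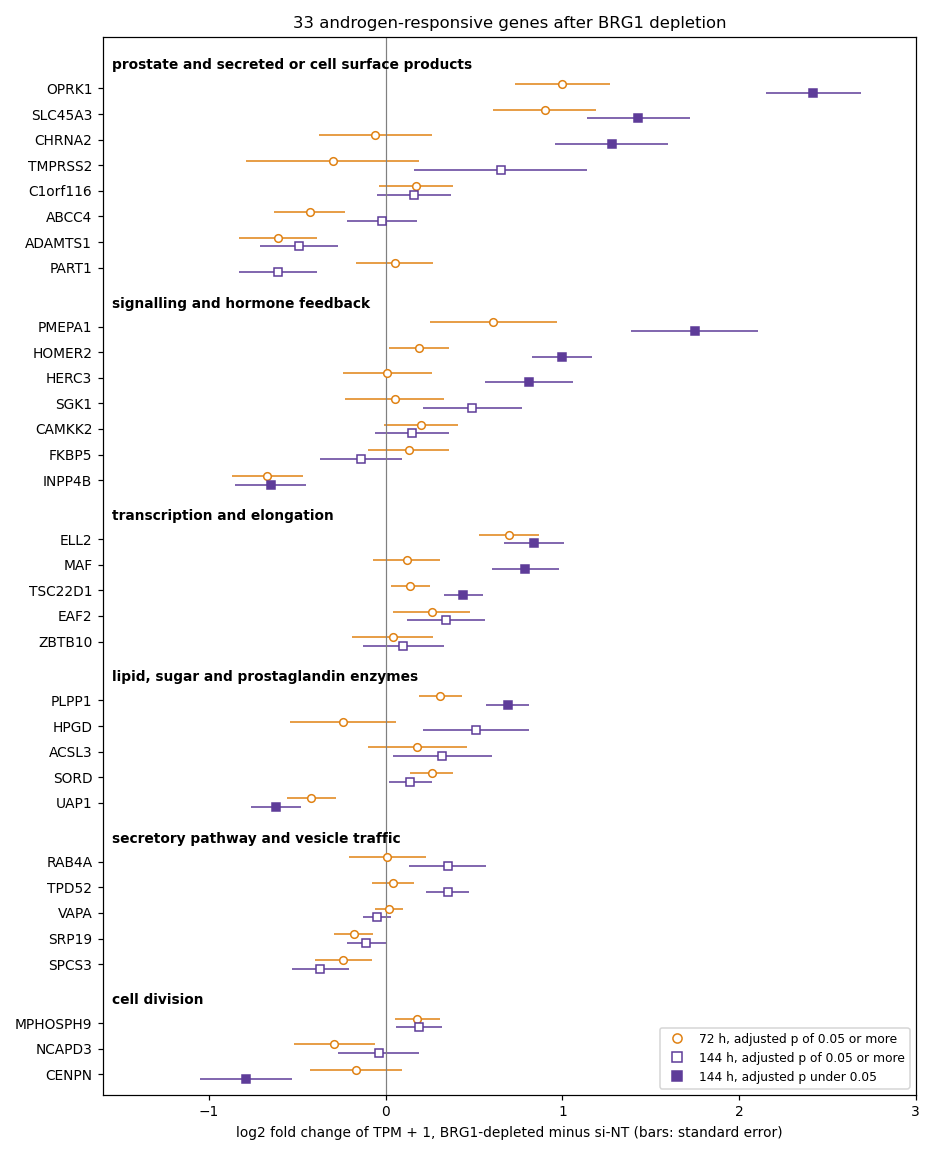
Log2 fold change of TPM + 1 (x axis, BRG1-depleted minus si-NT, bars give the standard error) for the 33 tested genes by role, at 72 h (circles) and 144 h (squares), with filled symbols for an adjusted p under 0.05. The 13 filled squares are at 144 h, from -0.79 for CENPN to 2.42 for OPRK1, and no circle is filled.

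Among prostate, secreted and cell surface products, 3 of the 8 tested genes rose at 144 h and 0 fell. The strongest rise was that of OPRK1 (ENSG00000082556.6, GRCh37 chr8:54138284-54164197), which encodes the kappa opioid receptor, a G protein-coupled receptor. OPRK1 was at 0.26 and 0.88 TPM in si-NT at 72 h and at 0.53 and 0.43 TPM in si-NT at 144 h. In BRG1-depleted cells it reached 1.72 and 3.42 TPM with siRNA 2 and 1.48 and 2.01 TPM with siRNA 3 at 72 h. At 144 h OPRK1 was at 5.49 and 5.35 TPM with siRNA 2 and at 8.76 and 8.80 TPM with siRNA 3. Every depleted library thus exceeded every si-NT library, at both time points. Its log2 fold change was 1.00 ± 0.27 (adjusted p = 0.104) at 72 h and 2.42 ± 0.27 (adjusted p = 0.000209) at 144 h, where the mean TPM was 14.8 times that of si-NT. It was the 1 member still called after spike-in scaling, at 2.18 (adjusted p = 0.000139). OPRK1 was under 1 TPM in every si-NT library and so entered the test only through the depleted libraries, the 1 member of 33 to do so. A gene that enters that way had to differ. Its fold over so low a baseline and its calls, here and in the other comparisons, are therefore a description. Without it 9 of 32 genes were higher. Of all 16337 genes, 1231 also entered only through the depleted libraries. The share called higher among the other 15106 was not computed, so this count has no like background. With no filter on low values OPRK1 was called as well (limma adjusted p = 0.00137).

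SLC45A3 (ENSG00000158715.5, chr1:205626979-205649637) encodes prostein, a prostate-restricted transporter of the solute carrier family. It was at 61.1 and 38.0 TPM in si-NT at 72 h and at 49.4 and 31.8 TPM in si-NT at 144 h. With siRNA 2 it was at 68.9 and 66.0 TPM at 72 h and at 90.9 and 105 TPM at 144 h. With siRNA 3 it was at 122 and 124 TPM at 72 h and at 124 and 117 TPM at 144 h, at like levels at both times. The groups did not overlap at either time point. This gave a log2 fold change of 0.90 ± 0.29 (adjusted p = 0.169) at 72 h and 1.43 ± 0.29 (adjusted p = 0.00562) at 144 h, and without the second si-NT library of 144 h it was 1.12 (adjusted p = 0.0941).

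CHRNA2 (ENSG00000120903.6, chr8:27317273-27337400), a subunit of the nicotinic acetylcholine receptor, was at 2.00 and 1.01 TPM in si-NT at 72 h but at 0.73 and 0.45 TPM in si-NT at 144 h. The depleted libraries of 72 h, at 1.18 and 0.94 TPM with siRNA 2 and 2.11 and 1.37 TPM with siRNA 3, overlapped with si-NT. At 144 h CHRNA2 was at 2.34 and 5.70 TPM with siRNA 2 and at 2.47 and 1.85 TPM with siRNA 3, and these lay above si-NT of the same time. Depletion gave a log2 fold change of -0.06 ± 0.32 (adjusted p = 0.959) at 72 h, a value whose sign turned with 1 library left out, and 1.28 ± 0.32 (adjusted p = 0.0139) at 144 h. Without the first or the second si-NT library of 144 h the adjusted p was 0.0593 or 0.129. The si-NT libraries of the 2 time points gave this gene different baselines, and the depleted libraries of 144 h exceeded the higher one in 3 of 4 cases.

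TMPRSS2 (ENSG00000184012.7, chr21:42836227-42903043), a transmembrane serine protease whose promoter drives the common ERG fusions of prostate cancer, had the largest standard error of the 33 genes. It was at 118 and 161 TPM in si-NT at 72 h and at 146 and 78.5 TPM in si-NT at 144 h. With siRNA 2 it was at 106 and 196 TPM at 72 h and at 226 and 303 TPM at 144 h. With siRNA 3 it was at 106 and 69.7 TPM at 72 h and at 144 and 82.9 TPM at 144 h, within the si-NT range of that time. The pooled log2 fold change was -0.30 ± 0.49 (adjusted p = 0.84) at 72 h and 0.65 ± 0.49 (adjusted p = 0.364) at 144 h, so no change was called. ADAMTS1, a secreted metalloprotease that cleaves versican, was at 95.5 and 137 TPM in si-NT and at 68.4 to 91.8 TPM in depleted cells at 72 h. At 144 h the levels were 107 and 96.2 TPM in si-NT and 48.9 to 86.8 TPM in depleted cells, and the groups were apart both times. Its log2 fold change was -0.61 ± 0.22 at 72 h (adjusted p = 0.221) and -0.49 ± 0.22 at 144 h (adjusted p = 0.133). PART1, a long non-coding RNA first described in prostate, had 1.31 and 1.36 TPM in si-NT and 0.42 to 0.63 TPM in depleted cells at 144 h, a log2 fold change of -0.61 ± 0.22 (adjusted p = 0.0617). ABCC4, an efflux pump of cyclic nucleotides and drugs, had a log2 fold change of -0.02 at 144 h, and C1orf116, also called SARG, one of 0.16, or -0.24 after spike-in scaling.

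Of the 7 tested genes of signalling and hormone feedback, PMEPA1, HOMER2 and HERC3 rose at 144 h and INPP4B fell. PMEPA1 (ENSG00000124225.11, chr20:56223448-56286592) encodes a membrane protein that recruits NEDD4-type ubiquitin ligases and restrains TGF-beta and androgen receptor signalling. It was at 19.9 and 18.1 TPM in si-NT at 72 h and at 22.5 and 12.4 TPM in si-NT at 144 h. In depleted cells at 72 h it was at 25.9 and 37.7 TPM with siRNA 2 and 31.5 and 24.8 TPM with siRNA 3. At 144 h PMEPA1 was at 72.0 and 103 TPM with siRNA 2 and at 46.6 and 34.1 TPM with siRNA 3, above si-NT with both siRNAs. The log2 fold change was 0.61 ± 0.36 (adjusted p = 0.49) at 72 h and 1.75 ± 0.36 (adjusted p = 0.00598) at 144 h, and without the second si-NT library of 144 h it was 1.34 (adjusted p = 0.0999).

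HOMER2 (ENSG00000103942.8, chr15:83505698-83654905), a scaffold that links receptors to intracellular calcium channels, was at even levels in si-NT, with 50.9 and 44.9 TPM at 72 h and 50.0 and 45.1 TPM at 144 h. Depleted cells of 72 h had 48.0 and 59.1 TPM with siRNA 2 and 61.0 and 51.6 TPM with siRNA 3, a range that met that of si-NT. By 144 h it was at 106 and 117 TPM with siRNA 2 and at 93.8 and 72.3 TPM with siRNA 3, all above si-NT. Its log2 fold change was 0.19 ± 0.17 (adjusted p = 0.672) at 72 h, or -0.0023 after spike-in scaling, and 1.00 ± 0.17 (adjusted p = 0.00198) at 144 h. HOMER2 stayed called with any 1 library left out. HERC3, a HECT-domain ubiquitin ligase, was at 28.7 and 16.5 TPM in si-NT and at 39.5 and 43.9 TPM with siRNA 2 and 43.2 and 30.5 TPM with siRNA 3 at 144 h. Its log2 fold change was 0.81 ± 0.25 (adjusted p = 0.0362), and without the second si-NT library it was 0.42 (adjusted p = 0.404). In si-NT at 72 h HERC3 was at 33.8 and 30.1 TPM, higher than in si-NT at 144 h. The siRNA 3 library of 144 h at 30.5 TPM lay within that 72 h range. The log2 fold change of HERC3 at 72 h was 0.01, with a sign that changed with the scaling.

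INPP4B (ENSG00000109452.8, chr4:142944313-143768585), a phosphatase of inositol lipids that opposes PI3K signalling, was at 3.07 and 3.40 TPM in si-NT at 72 h and at 1.97 and 1.60 TPM in si-NT at 144 h. At 72 h it was at 0.93 and 1.92 TPM with siRNA 2 and at 1.91 and 2.05 TPM with siRNA 3. At 144 h it was at 0.61 and 0.91 TPM with siRNA 2 and at 0.95 and 0.64 TPM with siRNA 3. The depleted libraries were lower at both time points, although those of 72 h reached the level of si-NT at 144 h. This gave a log2 fold change of -0.67 ± 0.20 (adjusted p = 0.133) at 72 h and -0.65 ± 0.20 (adjusted p = 0.0327) at 144 h, where the mean TPM was 0.436 times that of si-NT, and it was no longer called at 144 h in 4 of the 12 fits with 1 library left out.

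FKBP5 (ENSG00000096060.10, chr6:35541362-35696360) encodes a co-chaperone of HSP90 that tunes steroid receptor folding, and it is among the most widely used readouts of androgen receptor activity. It was at 39.1 and 21.5 TPM in si-NT at 72 h and at 37.9 and 33.8 TPM in si-NT at 144 h. With siRNA 2 it was at 30.8 and 25.3 TPM at 72 h and at 34.1 and 39.2 TPM at 144 h. With siRNA 3 it was at 37.0 and 35.4 TPM at 72 h and at 32.0 and 25.6 TPM at 144 h. Depleted and si-NT libraries overlapped at both time points. Depletion gave a log2 fold change of 0.13 ± 0.23 (adjusted p = 0.861) at 72 h and -0.14 ± 0.23 (adjusted p = 0.693) at 144 h, with a sign at 72 h that turned under spike-in scaling (-0.06). CAMKK2, a kinase upstream of AMPK, had a log2 fold change of 0.15 at 144 h, or -0.24 after spike-in scaling. SGK1, a kinase that steroid hormones induce, was at 2.32 and 1.86 TPM in si-NT at 144 h and at 4.43 and 5.29 TPM with siRNA 2 but 2.21 and 2.20 TPM with siRNA 3, giving a log2 fold change of 0.49 ± 0.28 (adjusted p = 0.223).

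**Figure D2:**
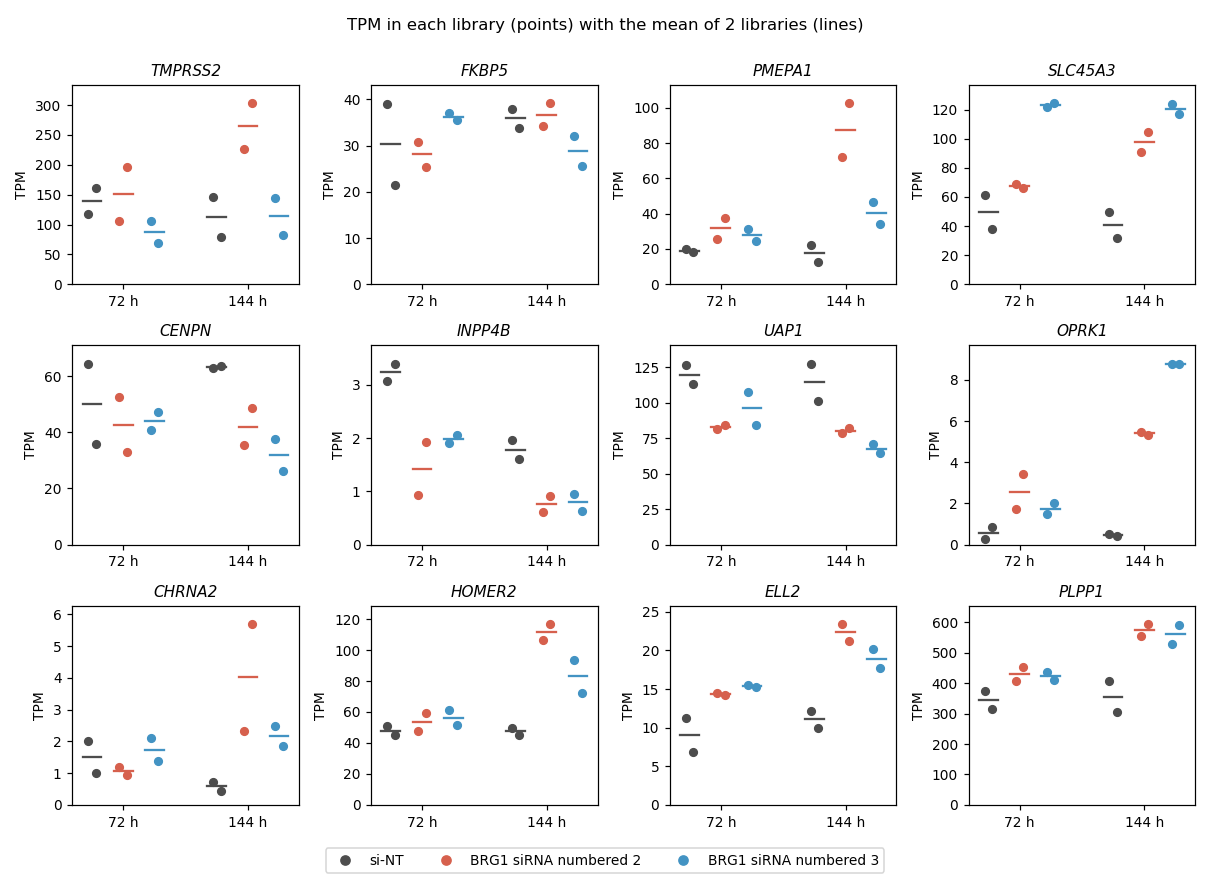
TPM (y axis, from 0) in each library for the 11 genes given in full and PLPP1, at 72 h and 144 h, with points for libraries and lines for the mean of the 2 libraries of si-NT (grey), siRNA 2 (red) and siRNA 3 (blue). At 144 h PMEPA1 lies between 34.1 and 103 TPM in depleted libraries and at 12.4 and 22.5 TPM in si-NT, whereas FKBP5 overlaps between groups.

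Of the 5 genes of transcription and elongation, ELL2, MAF and TSC22D1 rose at 144 h and 0 fell. ELL2 (ENSG00000118985.10, chr5:95220802-95297555) is an elongation factor of RNA polymerase II and a subunit of the super elongation complex. It was at 11.3 and 6.81 TPM in si-NT at 72 h and at 12.2 and 9.97 TPM in si-NT at 144 h. Depleted cells of 72 h had 14.5 and 14.3 TPM with siRNA 2 and 15.6 and 15.3 TPM with siRNA 3. At 144 h the levels were 23.5 and 21.3 TPM with siRNA 2 and 20.2 and 17.7 TPM with siRNA 3. The depleted libraries lay close together and above every si-NT library at both time points. The log2 fold change was 0.70 ± 0.17 (adjusted p = 0.067) at 72 h and 0.84 ± 0.17 (adjusted p = 0.00468) at 144 h, and without the second si-NT library of 144 h it was 0.71 (adjusted p = 0.0783). At 72 h ELL2 passed the test without the first si-NT library of that time, at 1.03.

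MAF, a basic leucine zipper factor, was at 0.85 and 0.57 TPM in si-NT and at 1.53 to 2.28 TPM in depleted cells at 144 h, a log2 fold change of 0.79 ± 0.19 (adjusted p = 0.0117). Without the second si-NT library of 144 h its adjusted p was 0.133. TSC22D1, a leucine zipper protein that responds to TGF-beta, was at 72.3 and 68.2 TPM in si-NT and at 91.4 to 108 TPM in depleted cells at 144 h. The log2 fold change of TSC22D1 was 0.44 ± 0.11 (adjusted p = 0.0129), the smallest of the 10 rises, and 0.04 after spike-in scaling. Without the first or the second si-NT library of 144 h its adjusted p was 0.061 or 0.128. EAF2, a partner of ELL proteins, was at 5.25 and 6.01 TPM in si-NT and at 6.34 to 8.27 TPM in depleted cells at 144 h, with a log2 fold change of 0.34 ± 0.22 (adjusted p = 0.29), and ZBTB10, a zinc finger repressor, had 0.10. Both values were negative after spike-in scaling (-0.01 and -0.27).

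Of the 5 enzymes of lipid, sugar and prostaglandin metabolism, PLPP1 rose and UAP1 fell at 144 h. UAP1 (ENSG00000117143.9, chr1:162531512-162571030) makes UDP-N-acetylglucosamine, the donor sugar of protein glycosylation. It was at 127 and 113 TPM in si-NT at 72 h and at 128 and 101 TPM in si-NT at 144 h. At 72 h it was at 81.3 and 84.7 TPM with siRNA 2 and at 108 and 84.4 TPM with siRNA 3. By 144 h it was at 78.4 and 82.6 TPM with siRNA 2 and at 70.7 and 64.6 TPM with siRNA 3. No depleted library of a time point reached a si-NT library of that time. Its log2 fold change was -0.42 ± 0.14 (adjusted p = 0.179) at 72 h and -0.62 ± 0.14 (adjusted p = 0.00948) at 144 h, and without the first si-NT library of 144 h it was -0.45 (adjusted p = 0.123).

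PLPP1 (ENSG00000067113.12, chr5:54720682-54830797), a phosphatase of lipid phosphates at the cell surface, was among the most abundant of these RNAs. It was at 407 and 304 TPM in si-NT at 144 h, at 556 and 595 TPM with siRNA 2 and at 529 and 591 TPM with siRNA 3. At 72 h it was at 375 and 315 TPM in si-NT and at 406 to 452 TPM in depleted cells. This gave a log2 fold change of 0.31 ± 0.12 (adjusted p = 0.24) at 72 h and 0.69 ± 0.12 (adjusted p = 0.00211) at 144 h, and it stayed called with any 1 library left out. Exons of neighbouring genes cover 29.6% of its annotated exonic bases, MTREX on the other strand among them, and the strand setting of the counting is not given in the sources used here, so some of its reads are uncertain. SORD, which oxidises sorbitol to fructose, was at 375 to 501 TPM over all libraries, with a log2 fold change of 0.14 ± 0.12 at 144 h (adjusted p = 0.426). ACSL3, which activates long-chain fatty acids, had 0.32 ± 0.28 (adjusted p = 0.442). After spike-in scaling these values were -0.26 and -0.08. HPGD, which inactivates prostaglandins, was at 2.19 and 0.79 TPM in si-NT and at 1.56 to 3.33 TPM in depleted cells at 144 h, so the groups overlapped, with a log2 fold change of 0.51 ± 0.30 (adjusted p = 0.251).

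None of the 5 genes of the secretory pathway and vesicle traffic was called by limma at either time point, and at an unadjusted p under 0.05 SPCS3 was lower (against 16.6% of all genes) and TPD52 higher (against 20.2%) at 144 h. SPCS3, a subunit of the signal peptidase, was at 19.7 and 24.0 TPM in si-NT and at 12.9 to 21.2 TPM in depleted cells at 144 h, a log2 fold change of -0.37 ± 0.16 (adjusted p = 0.113). TPD52, a coiled-coil protein of vesicle traffic, was at 196 and 193 TPM in si-NT and at 220 to 272 TPM in depleted cells at 144 h, a log2 fold change of 0.35 ± 0.12 (adjusted p = 0.0612), or -0.05 after spike-in scaling. VAPA, a tether at the endoplasmic reticulum, kept to 95.5 to 106 TPM over the 12 libraries, the narrowest range of the 33 genes relative to its level, with a log2 fold change of -0.05 ± 0.08 at 144 h. SRP19, a protein of the signal recognition particle, had -0.11 ± 0.11. RAB4A, a GTPase of early endosome recycling, had 0.35 ± 0.22 (adjusted p = 0.289), or -0.05 after spike-in scaling, with levels that differed between the siRNAs.

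Of the 3 genes of cell division, CENPN fell at 144 h. CENPN (ENSG00000166451.9, chr16:81040157-81066719) is a centromere protein that recognises CENP-A nucleosomes. It was at 64.5 and 35.9 TPM in si-NT at 72 h and at 62.7 and 63.7 TPM in si-NT at 144 h. At 72 h it was at 52.6 and 32.8 TPM with siRNA 2 and at 40.8 and 47.3 TPM with siRNA 3, and overlapped with si-NT. At 144 h it was at 35.4 and 48.6 TPM with siRNA 2 and at 37.5 and 26.2 TPM with siRNA 3, all below si-NT. Depletion gave a log2 fold change of -0.17 ± 0.26 (adjusted p = 0.833) at 72 h and -0.79 ± 0.26 (adjusted p = 0.0453) at 144 h, and it stayed called in 5 of the 12 fits with 1 library left out. Exons of other genes, CMC2 on the other strand among them, cover 16.8% of its annotated exonic bases. NCAPD3, a condensin II subunit, had a log2 fold change of -0.04 ± 0.23 at 144 h, and MPHOSPH9, a protein of the centriole cap, 0.19 ± 0.13, or -0.20 after spike-in scaling. In the same libraries 15 of 19 S phase genes and 19 of 20 G2/M genes were lower at 144 h, where 10.8% of all genes were (median log2 fold changes of -0.87 and -0.94), and 0 of either list at 72 h. The summed TPM of the G2/M list was 1820 to 2090 in si-NT and 977 to 1390 in depleted cells at 144 h. At 72 h it was 1080 and 1840 in the 2 si-NT libraries, which differed from each other in this respect. In bulk RNA fewer cells of a kind and less RNA per cell cannot be told apart, and the part of cell cycle state in the fall of CENPN was not tested.

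The 11 genes with values in full were also compared with all 4 si-NT libraries of both time points by a two-sided exact permutation test of TPM. With 4 libraries against 4 the smallest exact permutation p is 0.0286. It became 0.0572 after Benjamini-Hochberg adjustment over the 22 comparisons, a value set by how many of them reached it, so none passed 0.05. That smallest p was reached in 11 comparisons, namely by PMEPA1, SLC45A3, OPRK1 and ELL2 at both time points and by INPP4B, UAP1 and HOMER2 at 144 h. Apart from TMPRSS2, FKBP5, PMEPA1 and SLC45A3, the genes of this test were chosen by their calls at 144 h in these libraries. A small p for them at 144 h largely restates that choice. For CHRNA2 at 144 h the exact permutation p was 0.0571, for CENPN 0.0857, for TMPRSS2 0.286 and for FKBP5 0.971.

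Whether the changes grew between the time points was tested as the interaction of depletion and time. Limma called 0 of the 33 genes, against 0.0184% of all genes, and at an unadjusted p under 0.05 there were 7, all with the higher change at 144 h, against 5.54% of all genes in that direction and 6.35% in the other. These were OPRK1 (1.42 ± 0.38, adjusted p = 0.249), CHRNA2 (1.34 ± 0.45, adjusted p = 0.316), PMEPA1 (1.13 ± 0.52, adjusted p = 0.419), HOMER2 (0.81 ± 0.24, adjusted p = 0.277), HERC3, MAF and PLPP1. ELL2 had an interaction of 0.14 ± 0.24, INPP4B of 0.02 ± 0.28 and UAP1 of -0.19 ± 0.20. Thus a call at 144 h without one at 72 h was not shown to be a difference between the times for any of these genes. Between the si-NT libraries of 144 h and 72 h limma called 0 of the 33 genes and 0% of all genes, and at an unadjusted p under 0.05 INPP4B (-0.61) and HPGD (-0.85) were lower at 144 h (against 2.57% of all genes), and 0 members were higher (against 1.54%).

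Each siRNA was set against si-NT in a model of 6 groups, in which both share the si-NT libraries. At 144 h siRNA 2 gave 15 members higher (against 13.6% of all genes) and 2 lower (against 7.67%). The lower genes were UAP1 and PART1, and the higher ones included TMPRSS2 (1.28, adjusted p = 0.0497), SGK1 (0.92, adjusted p = 0.0123), RAB4A (0.70, adjusted p = 0.00366) and C1orf116 (0.49, adjusted p = 0.0479). At 144 h siRNA 3 gave 8 members higher (against 9.83% of all genes) and 4 lower (against 10.4%). The lower genes were CENPN, UAP1, ADAMTS1 (-0.77, adjusted p = 0.031) and SPCS3 (-0.59, adjusted p = 0.0191). With siRNA 3 the log2 fold change of TMPRSS2 was 0.03, of SGK1 0.06, of RAB4A 0.00 and of C1orf116 -0.17. For OPRK1 the changes were 2.12 with siRNA 2 and 2.73 with siRNA 3, for SLC45A3 1.28 and 1.58, for PLPP1 0.71 and 0.67, and for PMEPA1 2.29 and 1.20. Among the genes called in the pooled comparison, INPP4B was called with neither siRNA (limma adjusted p = 0.0603 with siRNA 2 and 0.0714 with siRNA 3). CHRNA2 (adjusted p = 0.0627) and HERC3 (adjusted p = 0.0686) were not called with siRNA 3, nor was CENPN with siRNA 2 (adjusted p = 0.191). At 72 h siRNA 2 gave 0 members (against 1.57% of all genes), with 5 lower and 3 higher at an unadjusted p under 0.05 (against 6.11% and 10.8%), and siRNA 3 gave 1 (against 0.655%), SLC45A3 at 1.33 (adjusted p = 0.0421).

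The difference between the siRNAs was itself tested. At 144 h it passed for 1 of the 33 genes, RAB4A, against 0.331% of all genes. RAB4A was at 57.2 and 59.8 TPM in si-NT, at 92.7 and 98.3 TPM with siRNA 2 and at 61.3 and 56.0 TPM with siRNA 3, so that only siRNA 2 stood apart from si-NT. The change with siRNA 3 was lower than that with siRNA 2 by a log2 value of -0.69 ± 0.11 (adjusted p = 0.0484), a call that 5 of 8 other settings of this fit did not keep. For TMPRSS2 the difference was -1.25 ± 0.40 (adjusted p = 0.246), for PMEPA1 -1.09 ± 0.29 (adjusted p = 0.186), for SGK1 -0.87 ± 0.20 (adjusted p = 0.135) and for C1orf116 -0.66 ± 0.15 (adjusted p = 0.135), so these were not separated after adjustment, nor shown to be alike. At an unadjusted p under 0.05 there were 10 genes lower and 2 higher with siRNA 3, against 9.9% and 3.41% of all genes, which leaned the same way. At 72 h limma called 0 genes (against 0.141% of all genes), with 1 lower and 5 higher at an unadjusted p under 0.05 (against 2.94% and 5.39%).

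**Figure D3:**
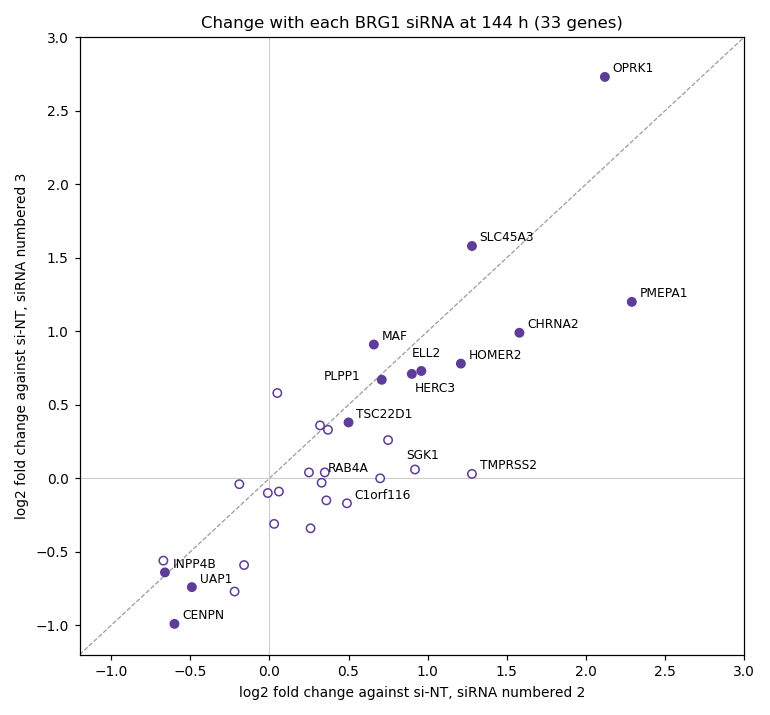
Log2 fold change against si-NT at 144 h with siRNA 2 (x axis) and siRNA 3 (y axis) for the 33 genes, filled where the pooled depleted group was called, with a dashed line of equal change. OPRK1 and SLC45A3 lie above the line, PMEPA1 below it at 2.29 and 1.20, and TMPRSS2, SGK1 and RAB4A near 0 for siRNA 3; both axes share the si-NT libraries.

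A further 70 androgen response genes, none of them members or kallikreins, gave the background of the wider pathway, and 68 of them were tested. At 144 h 14 were higher (20.6%, against 13.6% of all genes) and 8 lower (11.8%, against 10.8%), with a median log2 fold change of 0.05. Among the higher ones SAT1, the rate-limiting enzyme of polyamine breakdown, was at 54.8 and 64.8 TPM in si-NT and at 325 to 459 TPM in depleted cells, a log2 fold change of 2.65 ± 0.19 (adjusted p = 1.61e-05). The luminal transcription factor SPDEF had 0.93 ± 0.10 (adjusted p = 0.00019), and ALDH1A3, which makes retinoic acid, 1.36 ± 0.26 (adjusted p = 0.00345). Among the lower ones were INSIG1, a brake on sterol synthesis, at -0.71 ± 0.14 (adjusted p = 0.00449) and the Ku subunits of DNA end joining, XRCC5 at -0.42 ± 0.09 (adjusted p = 0.00654) and XRCC6 at -0.28 ± 0.08 (adjusted p = 0.0283). At 72 h 1 was higher (1.47%, against 1.13% of all genes), the sulfate transporter SLC26A2 (0.57 ± 0.11, adjusted p = 0.0283). In the luminal marker list, which overlaps with this set and also holds SPDEF, 4 of 8 genes were higher at 144 h and 0 lower, where 13.6% and 10.8% of all genes were. The 7 further genes given by name were picked after their values were seen.

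Since 2 control libraries carried each baseline, the 13 called genes were set against each si-NT library of 144 h alone. Without the second library the rises were smaller, at 0.40 for TSC22D1 to 2.37 for OPRK1, and UAP1 and INPP4B were lower still, at -0.79 and -0.75. Without the first library they were 0.48 to 2.47, and UAP1 and INPP4B were at -0.45 and -0.55. The 13 genes kept their direction in each of the 12 fits that left out 1 library. The second si-NT library of 144 h had the lower TPM of the pair for each of the 10 rising genes, for example 12.4 against 22.5 TPM for PMEPA1 and 16.5 against 28.7 TPM for HERC3. The same held for the falling UAP1 and INPP4B and for the other tested members except CENPN, EAF2, PART1, RAB4A, SPCS3 and SRP19. It was therefore not particular to the rising genes, and the share over all genes was not computed. The spike-in share of this second library was 1.34%, against 0.805% in the first.

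**Figure D4:**
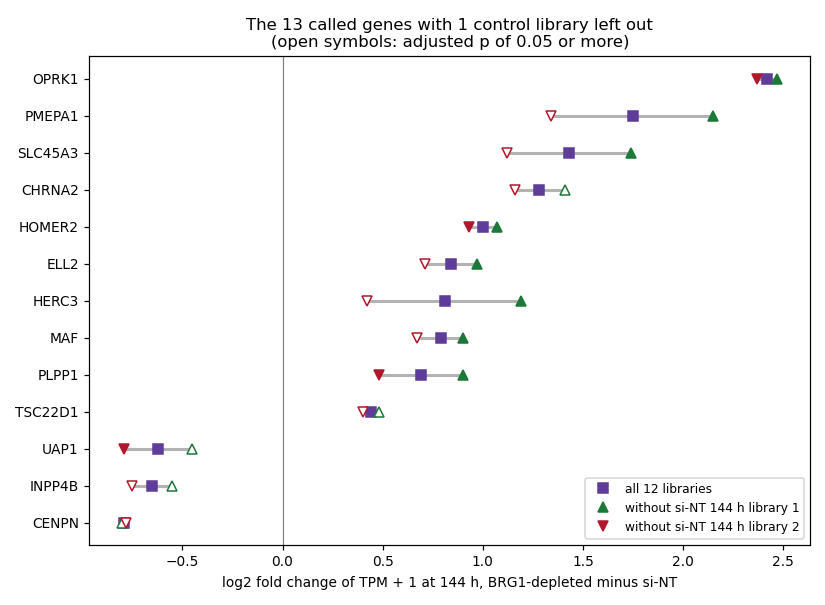
Log2 fold change at 144 h (x axis) of the 13 called genes with all 12 libraries (squares) and without the first (upward triangles) or the second (downward triangles) si-NT library of 144 h, with open symbols for an adjusted p of 0.05 or more. OPRK1, HOMER2 and PLPP1 stay filled throughout, and HERC3 moves from 0.81 to 0.42 and 1.19.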

How the data were processed

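RNA-seq of 12 LNCaP libraries was analysed. The methods state that ERCC spike-ins were added before stranded mRNA library preparation, that STAR placed the reads on GRCh37 (hg19) and featureCounts assigned them to genes, and the authors deposited TPM on GENCODE genes. Their processing notes name STAR 2.4.0j, Trim Galore 0.11.2 and FastQC. The deposited TPM have 2 decimals and each library has the same total with the 92 spike-ins included, so the spike-in normalisation is not kept. TPM keeps no depth, so the depth and counting error of each library are unknown. Spike-ins made up 0.805% to 1.97% of TPM. The study tested counts, and a test on the log scale took its place here.

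Genes at 1 TPM or more in 2 or more libraries (16337) were tested on log2(TPM + 1) by limma 3.58.1 in R 4.3.3 (lmFit, eBayes with a trend). The model had 4 groups with a common variance, or 6 groups for the siRNAs. P-values were adjusted over all these genes (Benjamini-Hochberg), and a call is an adjusted p under 0.05. Exact permutation tests used SciPy 1.17.1, and figures matplotlib 3.10.9 in Python 3.11.15. The procedure was tested on simulated data.

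The members and lists were chosen with earlier results of these data known. Values in full are given for TMPRSS2, FKBP5, PMEPA1 and SLC45A3, for any member called at both time points (0 were), and for the 6 lowest and 6 highest called at 144 h. Other members are named with a fold change, and untested ones with their TPM range. Symbols, GRCh37 coordinates and exon overlaps come from GENCODE release 44 lifted to GRCh37, and promoters from RefSeq (GRCh38.p14). The alternatives were a pseudocount of 0.1, spike-in, median-of-ratios and quantile scaling, no filter, a mean of at least 5 TPM, the replicate number as a block, no trend, 1 time point alone, si-NT of both time points combined, 6 groups, other limits, and each library left out. Those for the comparison between the siRNAs were chosen after seeing the data. Protein and ChIP-seq data were not analysed here.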

Additional observations from a re-analysis of the deposited data

Results flagged for a closer look

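The difference between the siRNAs for RAB4A at 144 h passed its test, at a log2 value of -0.69 for siRNA 3 minus siRNA 2 (limma adjusted p = 0.0484), and was lost in 5 of 8 other settings of the same fit.

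In 6 of 66 groups of 4 BRG1-depleted libraries, 1 library lay far from the other 3 by Dixon's ratio for a group of that size, and chance alone gives about 1 in 20 such groups. At 72 h, ADAMTS1 was highest in library 2 of siRNA 2, at 91.8 TPM against 70.8 TPM in the next. INPP4B was lowest in library 1 of siRNA 2 at 72 h, at 0.93 TPM against 1.91 TPM. UAP1 was highest in library 1 of siRNA 3 at 72 h, at 108 TPM against 84.7 TPM. At 144 h, CHRNA2 was highest in library 2 of siRNA 2, at 5.70 TPM against 2.47 TPM. TSC22D1 was highest in library 1 of siRNA 2, at 108 TPM against 92.3 TPM. SORD was lowest in library 2 of siRNA 3, at 375 TPM against 480 TPM. The values of ADAMTS1, INPP4B, UAP1 and SORD lie in comparisons that were not called.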

How the results depend on the processing

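The 13 genes called at 144 h kept their direction under every alternative run. The number of members called lower at 144 h, 3, was 0 with spike-in scaling and with log2 fold change limits of 1 or 1.5, and 1 with no filter and with an adjusted p under 0.01. Of all 16337 genes, 1761 were lower in the main fit and 613 with spike-in scaling. With limits of 1 and 1.5 it was 254 and 66, and with an adjusted p under 0.01 it was 698. With no filter, 1569 of 33048 genes were lower. With 1 library left out the number of members lower ran from 0 to 4, and that of all genes from 398 to 1889. The number of members called higher, 10, was 1 with spike-in scaling, 2 and 4 with log2 fold change limits of 1.5 and 1, and 6 with an adjusted p under 0.01. Of all genes, 2222 were higher in the main fit and 139 with spike-in scaling. With limits of 1.5 and 1 it was 114 and 426, and with an adjusted p under 0.01 it was 1092. With 1 library left out the number of members higher ran from 3 to 11, and that of all genes from 752 to 2420. At 72 h, 1 member was called lower with quantile normalisation, as were 131 of all genes. With si-NT of both time points combined 3 members were called higher, as were 863 of all genes. With 1 library left out 0 to 1 members were called higher, and 24 to 194 of all genes. The 1 member that differed between the siRNAs at 144 h became 0 with a pseudocount of 0.1, spike-in scaling, no filter, no trend or the replicate block. Of all genes, that comparison called 25 lower and 29 higher in its main fit. Under those settings, in that order, it called 20 and 20, 8 and 2, 21 and 34, 13 and 17, and 10 and 13.

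With the replicate number as a block, 0 members were called at 72 h, and 3 lower and 10 higher at 144 h. Of all genes, 58 were lower and 121 higher at 72 h, and 1625 and 2067 at 144 h. Whether same-numbered libraries are paired cannot be told here. The correlations of their deviations ran from -0.229 to 0.30. At 72 h the value was 0.30 for si-NT with siRNA 2, and -0.201 and -0.229 for siRNA 3 with si-NT and with siRNA 2. Crossing the numbers of siRNA 3 at 72 h, chosen after seeing the data, left 3 and 10 at 144 h, against 1640 and 2154 of all genes.

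Spike-in scaling turned the sign at 72 h of FKBP5 (-0.06), HERC3 (-0.18), HOMER2 (-0.0023) and TSC22D1 (-0.05). Also turned at 72 h were PART1 (-0.03), C1orf116 (-0.02), SGK1 (-0.08), ZBTB10 (-0.14), ACSL3 (-0.01), VAPA (-0.17), TPD52 (-0.16), RAB4A (-0.18) and MPHOSPH9 (-0.01). At 144 h it turned C1orf116 (-0.24), CAMKK2 (-0.24), EAF2 (-0.01), ZBTB10 (-0.27), ACSL3 (-0.08), SORD (-0.26), TPD52 (-0.05), RAB4A (-0.05) and MPHOSPH9 (-0.20). None of the genes that turned was called there. This scaling lowers the median of all genes, from 0.06 to -0.12 at 72 h and from 0.03 to -0.31 at 144 h. Under the other alternatives, signs at 72 h were followed only for the 13 genes called at 144 h, ADAMTS1, FKBP5 and TMPRSS2. HERC3 at 72 h was -0.06 with median-of-ratios and -0.03 with quantile scaling. With si-NT combined, CHRNA2 (0.26) and FKBP5 (-0.02) turned at 72 h, and FKBP5 (0.0048) and NCAPD3 (0.08) at 144 h. With 1 library left out, values that changed sign ran at 72 h from -0.34 to 0.23 for CHRNA2, -0.29 to 0.54 for FKBP5, -0.11 to 0.16 for HERC3 and -0.58 to 0.24 for CENPN, and at 144 h from -0.40 to 0.37 for ABCC4, -0.17 to 0.37 for ZBTB10 and -0.19 to 0.18 for NCAPD3. The cause of these changes was not tested beyond the scaling itself. Of the 13 calls at 144 h, CENPN stayed called in 5 of the 12 fits with 1 library left out and INPP4B and HERC3 in 8. TPM keeps no depth, so the counting error of low genes is unknown.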
